A study of Arabidopsis thaliana with 9 samples.

Results

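The comparison set arid2/3/4 seedlings directly against epcr1/2 seedlings of Arabidopsis thaliana, with wild-type (WT) seedlings shown as a reference. The arid2/3/4 plants carry mutations in ARID2, ARID3 and ARID4, and the epcr1/2 plants in EPCR1 and EPCR2. The labels give no allele, and name each mutant only by its genes. All plants were whole seedlings, 10 days old, grown on MS plates at 22 ºC with 16 h of light and 8 h of dark, and total RNA from 1 g of seedlings was used for mRNA sequencing. There were 3 libraries of each genotype. The values are FPKM, which correct fragment numbers for the length of a transcript and the size of a library. Of 28117 genes in the table, 27839 are nuclear, and the comparison covers the 21168 of these that reached 0.5 FPKM in at least 3 of the 9 libraries.

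PEAT complexes take their name from the protein families that form them, the PWWP, EPCR, ARID and TRB proteins. ARID proteins carry a DNA-binding domain, EPCR proteins resemble Enhancer of Polycomb, and TRB proteins bind telomere-like repeats. The complexes associate with the MYST histone acetyltransferases HAM1 and HAM2 and with the ubiquitin protease UBP5, and the title of the series ties them to histone deacetylation and the silencing of heterochromatin. Both mutants carry mutations in genes of the same kind of complex, and the question of the direct comparison is where the transcriptomes of the arid2/3/4 and epcr1/2 mutants differ.

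The libraries numbered 3 stood apart from those numbered 1 and 2 in every genotype. Within a genotype, replicates 1 and 2 correlated across tested genes with r of 0.994 to 0.995, and replicate 3 with either of them with r of 0.835 to 0.883. The steps of the smallest values gave a rough depth of 19800000 to 27900000 fragments in the libraries numbered 1 and 2 and of 52200000 to 61200000 in those numbered 3. The labels number the libraries without saying whether they came from different cultures, and the p-values reflect only how far these libraries differ, and that spread may be technical. Values are therefore given below for replicates 1, 2 and 3 in that order, and differences are arid2/3/4 minus epcr1/2 in log2(FPKM + 1), with standard errors from limma and p-values adjusted over all 21168 genes. Green-tissue markers were high in all libraries. The summed level of 5 of them was 11812 to 25047 FPKM in arid2/3/4, 10340 to 25120 FPKM in epcr1/2 and 34863 to 42556 FPKM in WT. The sum of 6 root markers was 9.02 to 13.4 FPKM in arid2/3/4, 3.88 to 6.73 FPKM in epcr1/2 and 43.9 to 60.4 FPKM in WT, and 1 of them, PLT1, stayed below the expression filter. The sum of 3 shoot meristem markers was 7.55 to 9.30 FPKM in arid2/3/4, 23.4 to 49.1 FPKM in epcr1/2 and 2.15 to 4.57 FPKM in WT. The sum of 7 seed and embryo markers was 40.5 to 709 FPKM in arid2/3/4, 136 to 296 FPKM in epcr1/2 and 1.21 to 1.55 FPKM in WT. Of these 7, LEC1 stayed below the filter. The sum of 4 flower markers was 21.3 to 31.6 FPKM in arid2/3/4, 13.9 to 17.9 FPKM in epcr1/2 and 3.26 to 8.69 FPKM in WT. SEP3 was the largest part of that sum in every library, and AG stayed below the filter. The part of these levels in the results below was not tested.

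The mutated genes were examined first. ARID2 was at 2.12, 2.15 and 2.06 FPKM in arid2/3/4, against 18.6, 19.6 and 18.1 FPKM in epcr1/2 and 22.5, 20.1 and 22.5 FPKM in WT. ARID2 transcript was thus far below both other genotypes in every arid2/3/4 library, by -2.67 ± 0.12 against epcr1/2 (SE, n = 3 each, limma adjusted p = 9.61e-05). ARID4 was at 3.58, 3.13 and 4.28 FPKM in arid2/3/4, against 7.90, 8.12 and 8.73 FPKM in epcr1/2 and 11.4, 10.9 and 13.6 FPKM in WT, a fall of 0.99 ± 0.15 on the log2 scale (adjusted p = 0.00708). ARID3 was at 3.60, 4.04 and 5.62 FPKM in arid2/3/4, against 6.97, 6.85 and 7.0 FPKM in epcr1/2 and 8.68, 8.22 and 8.65 FPKM in WT. The arid2/3/4 libraries lay below the epcr1/2 libraries for ARID3 too, but this difference did not pass (-0.57 ± 0.16, adjusted p = 0.0599). It passed with the replicate block (0.0224), after median centring (0.0173) and after quantile normalization (0.0196).

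EPCR1 was at 13.4, 12.6 and 18.3 FPKM in arid2/3/4, against 0.344, 0.514 and 1.08 FPKM in epcr1/2 and 11.8, 10.5 and 16.4 FPKM in WT. Its level in arid2/3/4 was near that of WT, and the difference between the mutants was 3.27 ± 0.24 (adjusted p = 0.000485). EPCR2 transcript was present in both mutants, at 7.88, 7.14 and 12.6 FPKM in arid2/3/4 and 10.1, 10.4 and 12.0 FPKM in epcr1/2, against 8.36, 6.99 and 11.8 FPKM in WT, and its difference did not pass (-0.25 ± 0.25, adjusted p = 0.602). A transcript that is still read does not show that the gene is intact, since the allele is not given. None of the other 9 genes on the list of the complex and its partners passed (PWWP1 to PWWP3, TRB1 to TRB3, HAM1, HAM2 and UBP5), with differences between -0.25 ± 0.15 for HAM2 and 0.40 ± 0.14 for UBP5.

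**Figure D1:**
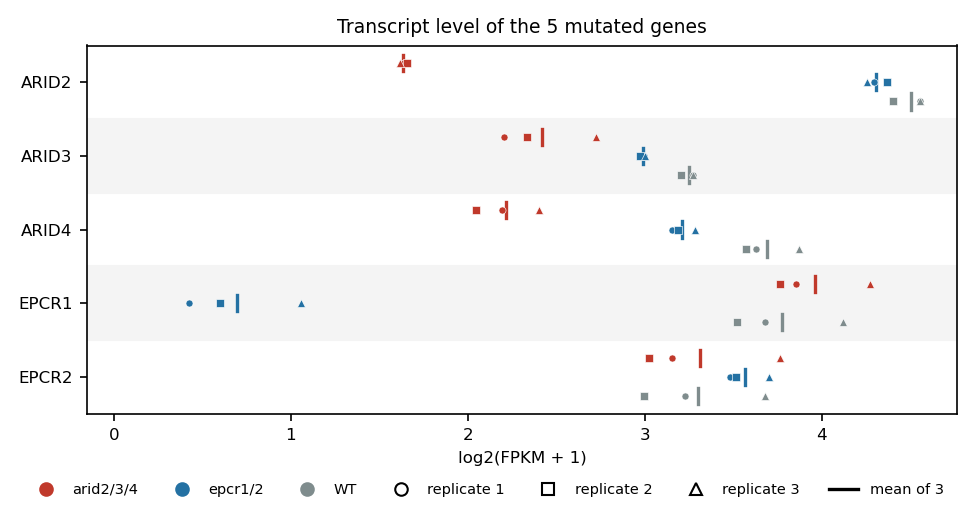
Transcript level of the 5 mutated genes as log2(FPKM + 1) on the horizontal axis, 1 symbol per library and a bar at the mean of the 3 libraries of a genotype. ARID2 is low in the 3 arid2/3/4 libraries and EPCR1 in the 3 epcr1/2 libraries, whereas the EPCR2 values of the mutants overlap.

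Across the transcriptome, 2218 genes differed between the mutants at an adjusted p under 0.05, which is 10.5% of those tested. Of these, 1208 (5.71%) were higher in arid2/3/4 and 1010 (4.77%) were lower. The difference was 2-fold or more for 565 of the higher and 546 of the lower genes, and 4-fold or more for 72 and 63. The 3 libraries of one mutant did not overlap the 3 of the other for 6423 genes (30.3%), and for all 2218 called genes. The median over all tested genes was 0.09. Centring each library on its median moved that median by -0.11, and the split of calls then was 1019 higher and 1536 lower. Quantile normalization gave 1100 higher and 1470 lower, so the count of higher against lower genes depends on the scaling.

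How many genes passed depended on how the libraries numbered 3 were treated. With the replicate number as a block, 6039 genes (28.5%) passed, among them all 2218. With replicates 1 and 2 averaged into 1 value before a fit with a block, which leaves 2 residual degrees of freedom in place of 6, 49 genes (0.231%) passed, 25 higher and 24 lower, and 46 of the 49 are among the 2218. In that fit 5135 genes had an unadjusted p under 0.05. Of the members of all gene lists described below, TIP1;1 and AT1G12010 alone were called in it beside ARID2 and EPCR1, so every other list member called below lost its call there. Since replicates 1 and 2 are so alike, a call that holds when 1 library is left out still rests on its near copy. Leaving out 1 library gave 870, 1007 and 3284 genes without arid2/3/4 replicates 1, 2 and 3, and 843, 834 and 2407 without those of epcr1/2. Without 1 of the WT libraries, which only share in the estimate of the spread, 1559, 1576 and 2686 passed.

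Some genes were called both with all 9 libraries and after averaging replicates 1 and 2. Of these, the 10 with the largest rises, EPCR1 among them, were at or under 1.08 FPKM in every epcr1/2 library. AGO5, which encodes an Argonaute, the class of protein that carries small RNAs, was at 21.8, 19.9 and 38.2 FPKM in arid2/3/4, against 0.341, 0.270 and 0.436 FPKM in epcr1/2 and 0.0214, 0.0498 and 0.280 FPKM in WT. AGO5 transcript was abundant only in arid2/3/4, and the difference was 4.30 ± 0.24 (adjusted p = 0.000133). AT2G25330, annotated as a TRAF-like protein, was at 15.5, 13.9 and 17.4 FPKM in arid2/3/4, against 0.348, 0.224 and 0.398 FPKM in epcr1/2 and 0.0377, 0.0218 and 0.142 FPKM in WT (3.65 ± 0.13, adjusted p = 3.48e-05). VIM5, whose protein has the SRA and RING domains of the VIM family of methylated-DNA readers, was at 9.58, 8.31 and 21.1 FPKM in arid2/3/4, against 0.0858, 0.0730 and 0.419 FPKM in epcr1/2 and 0.0186, 0 and 0.131 FPKM in WT (3.45 ± 0.31, adjusted p = 0.00103). For these 3 genes the epcr1/2 libraries sat with WT near 0.

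REM22, a B3-domain gene whose annotation note places its expression in stamen primordia, was at 18.3, 14.7 and 7.85 FPKM in arid2/3/4, against 0.422, 0.422 and 0.0954 FPKM in epcr1/2 and 0.216, 0 and 0.0191 FPKM in WT (3.41 ± 0.28, adjusted p = 0.000742). eIF6B, a translation initiation factor gene, was at 7.90, 10.0 and 5.41 FPKM in arid2/3/4 and at or under 0.396 FPKM in each epcr1/2 and WT library. AT5G54095 (proteoglycan-like), AT5G01320 (a pyruvate decarboxylase family protein) and AT4G00250 (a storekeeper-related transcriptional regulator) were likewise below 1 FPKM in every epcr1/2 and WT library, with differences of 2.76 ± 0.20, 2.89 ± 0.14 and 2.93 ± 0.21. The remaining gene of the 10 largest with EPCR1 left aside was AT4G25020, a G-patch domain gene. It was at 8.13, 6.73 and 7.44 FPKM in arid2/3/4, against 0.162, 0.199 and 0.146 FPKM in epcr1/2 and 3.74, 3.04 and 1.90 FPKM in WT, so here epcr1/2 was the genotype nearest to 0.

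The reverse group was abundant in epcr1/2. AT1G12010, annotated as likely to have ACC oxidase activity, the last step of ethylene synthesis, was at 2.74, 2.31 and 3.77 FPKM in arid2/3/4, against 104, 105 and 108 FPKM in epcr1/2 and 8.29, 9.78 and 8.41 FPKM in WT. Every arid2/3/4 library was below WT for this gene and every epcr1/2 library above, and the difference of -4.77 ± 0.16 was the largest fall of the comparison (adjusted p = 3.34e-05). AT2G36815 was listed at 0, 0 and 1.29 FPKM in arid2/3/4, against 31.8, 35.2 and 36.6 FPKM in epcr1/2 and 0, 0 and 0.273 FPKM in WT. AT1G20070, an uncharacterized protein, was at 11.1, 17.9 and 15.9 FPKM in arid2/3/4, against 283, 311 and 316 FPKM in epcr1/2 and 7.01, 6.74 and 11.9 FPKM in WT. AT4G29570, a cytidine deaminase gene, was at 1.81, 1.71 and 0.356 FPKM in arid2/3/4, against 44.1, 40 and 23.0 FPKM in epcr1/2 and 0.586, 0.435 and 0.0566 FPKM in WT. These 3 were high in epcr1/2 only, with differences of -4.75 ± 0.32, -4.27 ± 0.24 and -4.02 ± 0.36.

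Transcription factor genes of the AP2/ERF family were part of this group. ERF53, described as drought-induced, was at 0.255, 0.414 and 0.328 FPKM in arid2/3/4, against 8.46, 8.66 and 7.99 FPKM in epcr1/2 and 0.363, 0.305 and 0.688 FPKM in WT (-2.82 ± 0.14, adjusted p = 0.000121). AT4G28140, a factor of the DREB branch, was at 1.3, 1.36 and 0.450 FPKM in arid2/3/4, against 17.4, 18.4 and 14.0 FPKM in epcr1/2 and 0.0913, 0.282 and 0.279 FPKM in WT (-3.14 ± 0.22). AT1G62480, described as a vacuolar calcium-binding protein, was at 128, 114 and 105 FPKM in arid2/3/4, against 2025, 2008 and 951 FPKM in epcr1/2 and 329, 311 and 195 FPKM in WT (-3.75 ± 0.34). Both AT1G68350 (-3.20 ± 0.16) and AT5G03890 (-3.27 ± 0.18) fell as well, and for these the arid2/3/4 values were at most 3.73 FPKM.

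**Figure D2:**
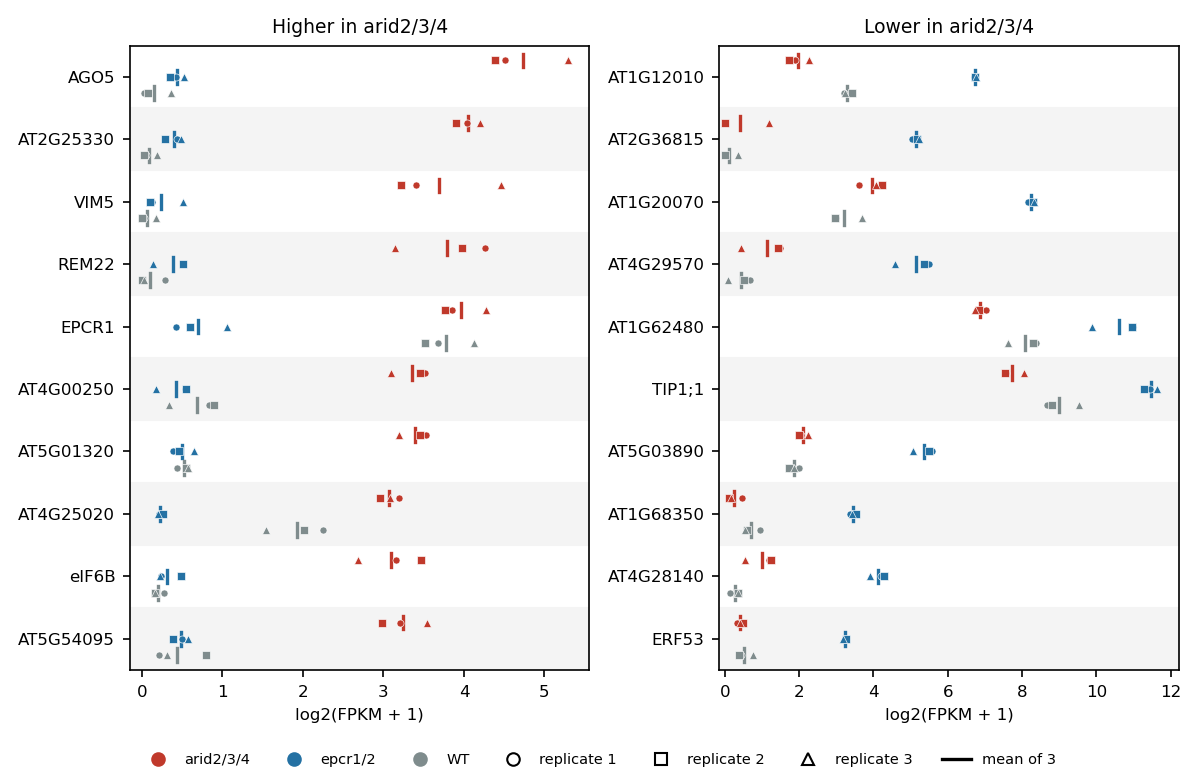
The 10 largest differences in each direction among genes called in the 9-library fit and again with replicates 1 and 2 averaged, as log2(FPKM + 1), 1 symbol per library and a bar at the mean of 3. In the left panel the arid2/3/4 symbols lie to the right of the epcr1/2 symbols in every row, and WT lies with epcr1/2 except for EPCR1 and AT4G25020, whereas in the right panel the epcr1/2 symbols lie to the right of both other genotypes.

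Some genes beyond these 20 were lost or reduced in a single mutant against both the other mutant and WT. They were picked from the 46 after their values were seen. MIM, which encodes the SMC6B subunit of the SMC5/6 complex of DNA repair, was at 0.423, 0.376 and 0.335 FPKM in arid2/3/4, against 4.90, 5.47 and 6.43 FPKM in epcr1/2 and 5.04, 4.36 and 4.15 FPKM in WT (-2.25 ± 0.14, adjusted p = 0.000214). MEMB12, a Golgi SNARE gene, was at 0.169, 0.0996 and 0.212 FPKM in arid2/3/4, against 6.05, 5.26 and 5.44 FPKM in epcr1/2 and 6.15, 4.32 and 5.18 FPKM in WT (-2.50 ± 0.15). Both were near 0 only in arid2/3/4.

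On the epcr1/2 side, RSZ21, which encodes a zinc-finger splicing factor of the SR type, was at 29.1, 25.5 and 26.4 FPKM in arid2/3/4, against 4.12, 3.53 and 2.88 FPKM in epcr1/2 and 19.8, 22.4 and 23.1 FPKM in WT (2.64 ± 0.15, adjusted p = 0.000133). AT4G37020, annotated as an initiation factor 4A-like protein, was at 7.24, 6.95 and 8.27 FPKM in arid2/3/4, against 0.307, 0.502 and 0.374 FPKM in epcr1/2 and 9.65, 8.79 and 10.3 FPKM in WT (2.60 ± 0.14). LSM2 (2.2 ± 0.34), which encodes an Sm-like protein of RNA processing, and SKIP16 (1.98 ± 0.15), which encodes an F-box protein, were also lower in epcr1/2 than in both other genotypes. AT4G32605, a mitochondrial glycoprotein family gene, was at 44.8, 35.4 and 25.5 FPKM in arid2/3/4, against 6.85, 7.96 and 4.81 FPKM in epcr1/2 and 27.8, 24.3 and 14.7 FPKM in WT, and in the annotation it is separated from EPCR1 by 1 gene.

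The largest rise of all called genes was that of AT2G30766, a locus that the annotation used here leaves uncharacterized. It was at 134, 122 and 43.5 FPKM in arid2/3/4, against 1.2, 0.829 and 5.30 FPKM in epcr1/2 and 46.2, 45.6 and 72.0 FPKM in WT (4.94 ± 0.56, adjusted p = 0.00249), so that the epcr1/2 libraries were low against both other genotypes. Its call held with any 1 library left out.

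Iron genes formed the list with the highest median. Plants sense low iron through a cascade of bHLH transcription factors, of which those of subgroup Ib (BHLH38, BHLH39, BHLH100 and BHLH101) rise when iron is short and act with FIT (FRU in the annotation) to switch on uptake by the transporter IRT1, whereas ferritins (FER genes) store iron when it is plentiful. Of 25 tested genes of iron uptake and homeostasis, 8 rose and 3 fell in arid2/3/4, beside 5.71% and 4.77% of all tested genes. The median difference was 1.23, beside 0.09 over all genes. All 4 subgroup Ib genes rose, with IRT1, with CYP82C4 and with AT1G47395 and AT1G47400. The last of these are neighbouring loci that the annotation leaves uncharacterized, and all calls are from limma.

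The window from 250 bases before to 50 bases after the annotated start is shown for the 4 subgroup Ib genes because they moved together. Sequences are from the RefSeq genome, build TAIR10.1, read 5′ to 3′ on the strand of the gene, which is the minus strand for all 4 (chr3:21085196-21085495 for BHLH38, chr3:21087661-21087960 for BHLH39, chr2:17199405-17199704 for BHLH100 and chr5:1139584-1139883 for BHLH101). Capitals mark the G-box CACGTG, a core motif that bHLH and bZIP factors can bind.
BHLH38: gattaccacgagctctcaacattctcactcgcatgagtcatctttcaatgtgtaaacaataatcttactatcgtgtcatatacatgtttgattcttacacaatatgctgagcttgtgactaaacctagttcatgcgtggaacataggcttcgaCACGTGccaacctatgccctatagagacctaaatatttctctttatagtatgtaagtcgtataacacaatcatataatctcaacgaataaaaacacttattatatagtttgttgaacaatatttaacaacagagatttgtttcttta
BHLH39: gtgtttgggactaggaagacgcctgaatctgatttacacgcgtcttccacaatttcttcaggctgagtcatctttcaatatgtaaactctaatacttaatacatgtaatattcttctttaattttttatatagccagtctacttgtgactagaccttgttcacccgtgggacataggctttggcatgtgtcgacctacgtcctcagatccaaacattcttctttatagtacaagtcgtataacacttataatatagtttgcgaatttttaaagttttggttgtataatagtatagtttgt
BHLH100: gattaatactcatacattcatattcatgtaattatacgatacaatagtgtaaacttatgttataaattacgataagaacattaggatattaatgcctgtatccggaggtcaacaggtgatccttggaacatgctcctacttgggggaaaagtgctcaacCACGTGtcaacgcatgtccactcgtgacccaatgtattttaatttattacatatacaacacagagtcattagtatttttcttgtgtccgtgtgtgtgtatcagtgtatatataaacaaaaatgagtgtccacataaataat
BHLH101: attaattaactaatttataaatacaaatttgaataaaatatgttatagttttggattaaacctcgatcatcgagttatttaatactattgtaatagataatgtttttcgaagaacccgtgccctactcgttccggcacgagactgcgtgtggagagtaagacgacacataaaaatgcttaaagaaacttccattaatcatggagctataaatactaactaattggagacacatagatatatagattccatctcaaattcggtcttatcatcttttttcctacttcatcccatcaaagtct
The G-box was found once in the BHLH38 window and once in the BHLH100 window and in neither of the other 2. It reads the same on both strands. Windows with a G-box made up 7.78% of the 1208 genes called higher, 7.72% of the 1010 called lower, 8.85% of 21167 windows of tested genes and 7.69% of 27838 windows of nuclear genes in the table.

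BHLH101 was at 13.9, 14.7 and 3.79 FPKM in arid2/3/4, against 0.0565, 0 and 0.0640 FPKM in epcr1/2 and 3.37, 4.66 and 3.04 FPKM in WT (3.32 ± 0.42, adjusted p = 0.00366). It was nearly off in all epcr1/2 libraries, and above each WT library in replicates 1 and 2 of arid2/3/4. BHLH38 was at 32.6, 34.3 and 2.98 FPKM in arid2/3/4, against 0.0803, 0 and 0.234 FPKM in epcr1/2 and 4.76, 4.02 and 1.64 FPKM in WT (3.93 ± 0.78, adjusted p = 0.0188). Replicate 3 of arid2/3/4 was also far below replicates 1 and 2 for BHLH39 and BHLH100. BHLH39 was at 30.5, 30.5 and 1.56 FPKM in arid2/3/4, against 0.103, 0.0989 and 0.182 FPKM in epcr1/2 and 4.56, 5.23 and 1.14 FPKM in WT. BHLH100 was at 31.8, 28.3 and 2.88 FPKM in arid2/3/4, against 0.193, 0.159 and 0.632 FPKM in epcr1/2 and 10.4, 10.2 and 1.96 FPKM in WT. For both genes WT replicate 3 was below WT replicates 1 and 2 as well. IRT1, the main iron transporter of the root surface, was at 4.22, 4.16 and 13.6 FPKM in arid2/3/4, against 0.0529, 0.105 and 0.617 FPKM in epcr1/2 and 11.2, 14.8 and 10.2 FPKM in WT (2.57 ± 0.41, adjusted p = 0.00827).

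The 3 iron genes that fell were ferritins and a synthase. FER1 was at 115, 104 and 165 FPKM in arid2/3/4, against 435, 409 and 291 FPKM in epcr1/2 and 67.5, 64.3 and 123 FPKM in WT (-1.56 ± 0.31, adjusted p = 0.0182). FER4 (-1.25 ± 0.26) and NAS1, a gene for synthesis of the metal chelator nicotianamine (-0.82 ± 0.18), fell too. With the replicate block 13 iron genes rose and 4 fell, beside 28.5% of all tested genes in either direction. With replicates 1 and 2 averaged no iron gene passed (BHLH101 0.0670, IRT1 0.0722, AT1G47395 0.114). The median over the list was 1.58 in replicates 1 and 2 alike and 0.50 in replicate 3, and the list's counts ranged from 3 to 13 higher and 0 to 4 lower with 1 library left out. Calls of BHLH101, IRT1 and AT1G47395 held with any 1 of the 9 libraries left out. Without arid2/3/4 replicate 1 or 2 or epcr1/2 replicate 1 or 2, those of BHLH38 (adjusted p up to 0.0752), BHLH39 (up to 0.151), BHLH100 (up to 0.126), AT1G47400 (up to 0.10), FER1 (up to 0.0778), FER4 (up to 0.0849) and NAS1 (up to 0.0914) ended. Without epcr1/2 replicate 3 or WT replicate 1 or 2, the calls of BHLH39 (0.0832, 0.0765 and 0.0736) and BHLH100 (0.0611, 0.0589 and 0.0591) ended as well, and NAS1 also ended without WT replicate 2 (0.0514). CYP82C4 was called in 3 of the 9 leave-outs, those of arid2/3/4 replicates 2 and 3 and WT replicate 3, with an adjusted p up to 0.108. Reads of BHLH38 and BHLH39, adjacent paralogues, may be divided between them by the authors' counting.

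Nearly as many aquaporin genes fell in arid2/3/4 as did not pass, and none rose. These channels pass water through the plasma membrane (PIP) or the vacuolar membrane (TIP). Of 19 tested members 9 fell and 10 did not pass, beside 4.77% of all tested genes called lower. All 19 differences were below 0, and their median was -1.23. With the replicate block 13 fell, beside 28.5% of all tested genes in either direction, and with replicates 1 and 2 averaged 1 did, TIP1;1. TIP1;1, the aquaporin gene with the highest mean in epcr1/2, was at 187, 185 and 266 FPKM in arid2/3/4, against 2806, 2509 and 3179 FPKM in epcr1/2 and 403, 448 and 744 FPKM in WT (-3.74 ± 0.30, adjusted p = 0.00068). It was below WT in each arid2/3/4 library and above WT in each epcr1/2 library, and is the direct neighbour of AT2G36815, described above, in the annotation.

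TIP2;2 was at 35.9, 38.6 and 64.8 FPKM in arid2/3/4, against 463, 429 and 364 FPKM in epcr1/2 and 61.0, 75.7 and 167 FPKM in WT (-3.19 ± 0.38, adjusted p = 0.00302). PIP2;2 was at 181, 158 and 108 FPKM in arid2/3/4, against 1178, 1105 and 479 FPKM in epcr1/2 and 189, 196 and 214 FPKM in WT (-2.54 ± 0.36, adjusted p = 0.00562). PIP2;5 was at 28.3, 26.2 and 30.1 FPKM in arid2/3/4, against 132, 118 and 79.4 FPKM in epcr1/2 and 12.5, 12.0 and 17.2 FPKM in WT (-1.90 ± 0.22). For PIP2;2 the arid2/3/4 libraries were near WT and the epcr1/2 libraries far above it, and the calls of these 4 genes held with any 1 library left out. PIP2;3, PIP1;3, PIP1;2, PIP1;1 and PIP2;8 passed in the 9-library fit, with differences between -2.49 and -0.74, but each lost its call without a replicate 1 or 2 of either mutant, with adjusted p up to 0.142. PIP2;3 also lost it without arid2/3/4 replicate 3 (0.0657) or WT replicate 1 (0.0691) or 2 (0.0668), and PIP2;8 without epcr1/2 replicate 3 (0.0739) or WT replicate 1 (0.0617) or 2 (0.0601). The list held 4 to 11 lower members over the leave-outs, and its median was -1.37, -1.41 and -0.92 in replicates 1, 2 and 3. PIP2;2 and PIP2;3 are near-identical neighbours, so their values are uncertain one against the other.

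**Figure D3:**
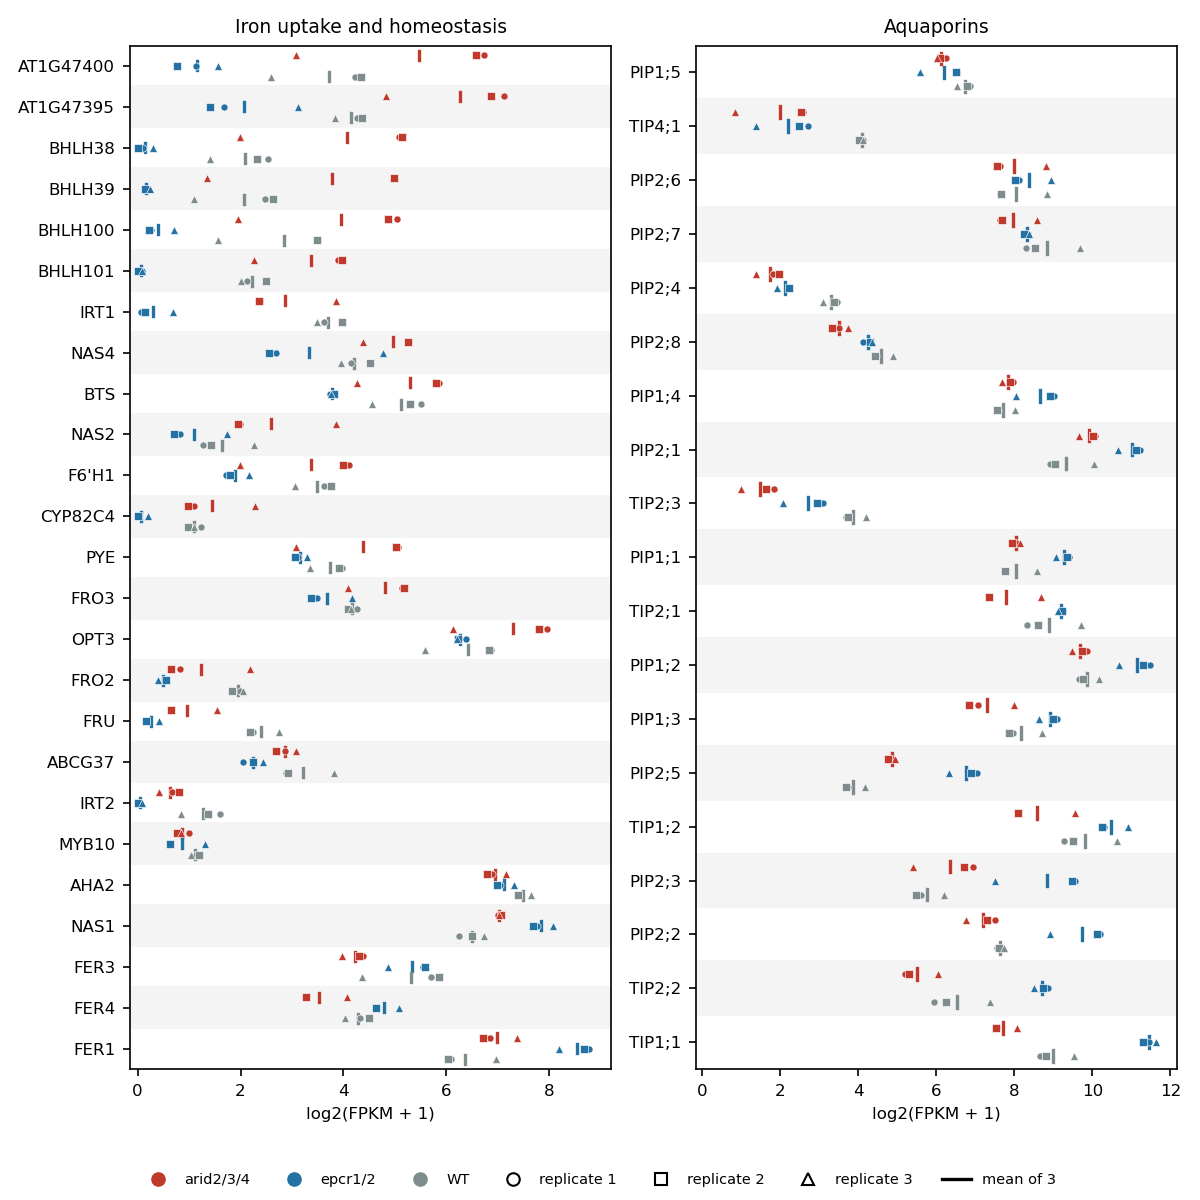
Tested genes of iron uptake and homeostasis (left, 25 genes) and aquaporins (right, 19 genes) as log2(FPKM + 1), ordered by the difference between the mutants, 1 symbol per library and a bar at the mean of 3. On the left the arid2/3/4 triangles (replicate 3) fall between the other arid2/3/4 symbols and the epcr1/2 symbols for BHLH38, BHLH39 and BHLH100, and on the right the arid2/3/4 mean lies left of the epcr1/2 mean in all 19 rows.

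Several genes of the shoot meristem and of organ boundaries fell in arid2/3/4 relative to epcr1/2. The shoot apical meristem is kept by WUS and by the signal peptide CLV3 that restrains it, and by the KNOX gene STM, while the CUC genes mark the boundaries between organs. Of 23 tested members 7 fell, 16 did not pass and none rose, beside 4.77% of all genes called lower, and the median was -0.53. With the replicate block 14 fell, beside 28.5% of all tested genes in either direction. With replicates 1 and 2 averaged none fell (STM 0.0762, CLV3 0.0719). STM was at 7.82, 6.74 and 8.14 FPKM in arid2/3/4, against 38.9, 37.8 and 19.4 FPKM in epcr1/2 and 3.38, 4.25 and 2.09 FPKM in WT (-1.89 ± 0.30, adjusted p = 0.00827). CLV3 was at 0.517, 0.514 and 0.410 FPKM in arid2/3/4, against 8.04, 9.14 and 3.09 FPKM in epcr1/2 and 0, 0.276 and 0.0533 FPKM in WT (-2.28 ± 0.32, adjusted p = 0.00511). The arid2/3/4 values of both genes were above those of WT in all 3 libraries, and the epcr1/2 values were higher still.

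CUC3 (-1.35 ± 0.20) and LOB (-1.16 ± 0.15), a boundary gene of the LBD family, fell, and with STM and CLV3 their calls held with any library left out. CUC2 was at 1.01, 0.750 and 1.48 FPKM in arid2/3/4, against 3.91, 5.54 and 3.10 FPKM in epcr1/2 and 0.775, 0.483 and 0.192 FPKM in WT (-1.3 ± 0.23, adjusted p = 0.0122), and its call ended without arid2/3/4 replicate 1 (0.0534) or 2 (0.0526). KNAT6 (-1.15 ± 0.29), a KNOX gene, was called in 1 of 9 leave-outs, that of epcr1/2 replicate 3, and WUS (-0.85 ± 0.21) in 2, those of replicate 3 of either mutant, with adjusted p up to 0.165 and 0.148. Leaf polarity genes of the list, such as PHB (-0.58 ± 0.19), PHV (-0.43 ± 0.14), YAB3 (0.19 ± 0.51) and KAN1 (0.18 ± 0.80), did not pass. In bulk seedlings, more meristem cells and more RNA per meristem cell cannot be told apart.

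Cell division genes also fell. Of 23 tested cyclins and mitotic genes, 14 fell in arid2/3/4 relative to epcr1/2 and none rose, beside 4.77% of all tested genes called lower. With the replicate block 1 rose and 16 fell, beside 28.5% of all tested genes in either direction. The list median was -0.80, with -0.80, -0.84 and -0.71 in replicates 1, 2 and 3, and 8 to 14 fell when 1 library was left out. AUR1, an Aurora kinase gene, was at 2.74, 2.97 and 4.02 FPKM in arid2/3/4, against 8.32, 8.17 and 10.7 FPKM in epcr1/2 and 7.15, 7.84 and 9.42 FPKM in WT (-1.25 ± 0.18, adjusted p = 0.00597). CYCB1;2, a mitotic cyclin gene, was at 5.62, 4.94 and 4.89 FPKM in arid2/3/4, against 14.1, 14.1 and 9.38 FPKM in epcr1/2 and 16.8, 16.3 and 13.7 FPKM in WT (-1.12 ± 0.18, adjusted p = 0.00908). For both genes the epcr1/2 libraries were closer to the WT libraries than the arid2/3/4 libraries were.

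CYCB1;4 (-1.01 ± 0.14), CYCB1;3 (-1.07 ± 0.17) and the replication clamp gene PCNA1 (-0.96 ± 0.15) fell, and their calls and those of AUR1 and CYCB1;2 held with any 1 library left out, whereas with replicates 1 and 2 averaged none of the 14 passed (AUR1 0.0576, CYCB1;2 0.0737). CDKB2;1, a plant-specific mitotic kinase gene, fell by 1.15 ± 0.20 on the log2 scale, and its call ended only without arid2/3/4 replicate 1 (0.0514). The difference of CYCD1;1 was -2.03 ± 0.52, but its call remained only without arid2/3/4 replicate 3, with adjusted p up to 0.151 otherwise. CYCB1;1, a mitotic cyclin gene also known to be induced by DNA damage, stood at 12.5, 12.4 and 10.5 FPKM in arid2/3/4, against 16.4, 15.8 and 13.3 FPKM in epcr1/2 and 6.05, 5.33 and 6.16 FPKM in WT, a difference that did not pass (-0.34 ± 0.14, adjusted p = 0.178). None of 17 cell cycle inhibitors and DNA damage genes passed in limma without the replicate block, with 4 at an unadjusted p under 0.05. With the block 2 rose, SMR1 and SMR7, and 3 fell, a share near the 28.5% of all tested genes that passed with it. SMR4 and KRP2, a cyclin-dependent kinase inhibitor gene (-1.45, block adjusted p = 0.00235), were among those that fell. Median centring and quantile normalization each gave 1 lower. SMR5, a SIAMESE-related inhibitor of cyclin-dependent kinases, was at 592, 561 and 111 FPKM in arid2/3/4 and 154, 106 and 38.9 FPKM in epcr1/2, against 0, 0 and 8.35 FPKM in WT. The arid2/3/4 values spread widely and overlapped those of epcr1/2, and the difference of 1.94 ± 1.03 did not pass (adjusted p = 0.294).

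**Figure D4:**
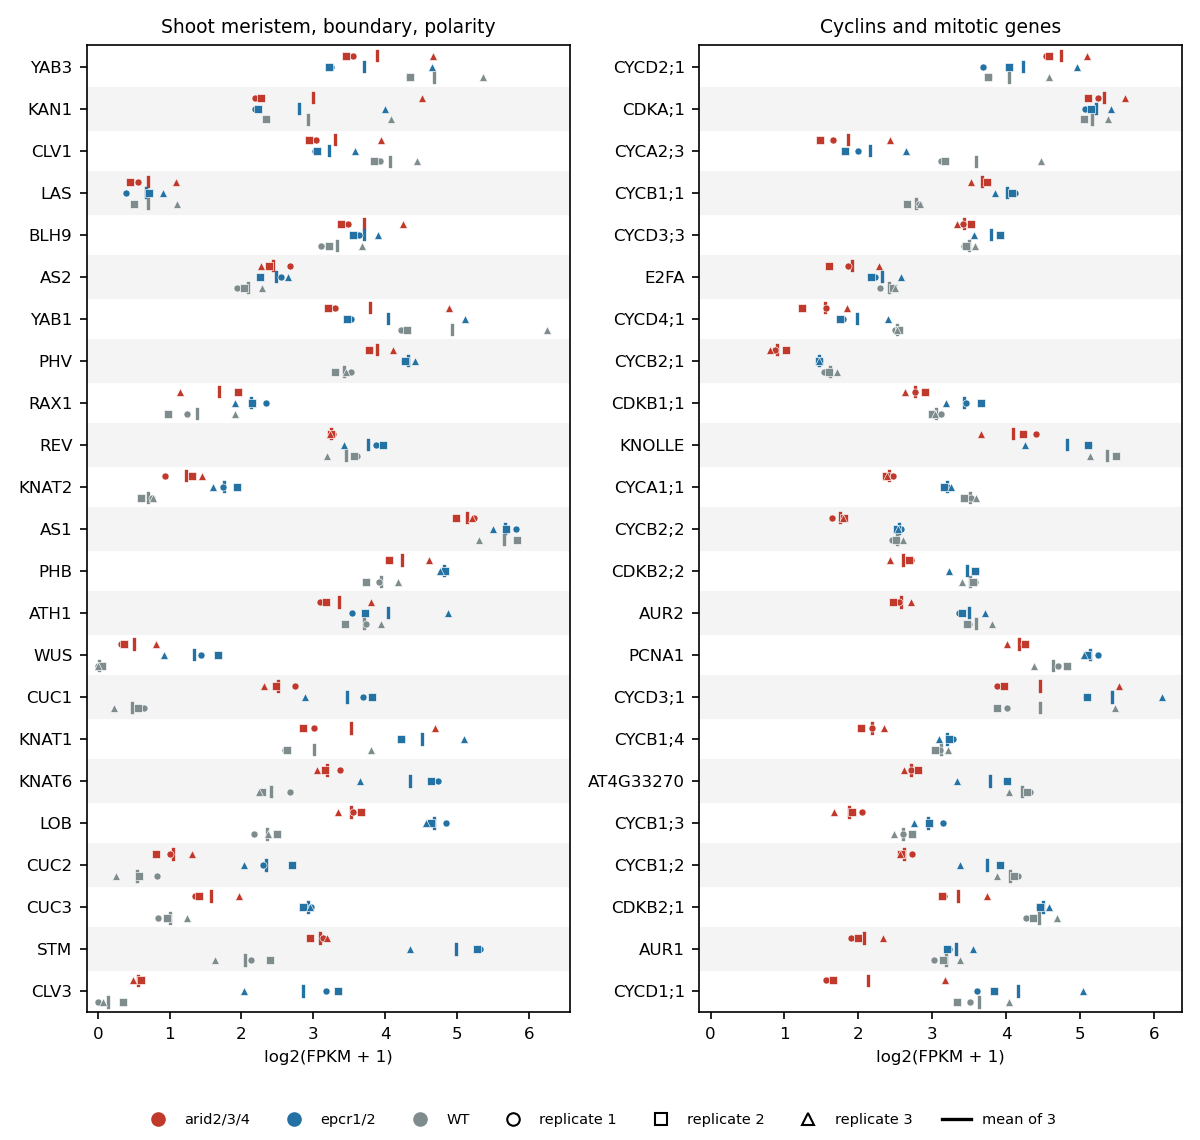
Tested genes of the shoot meristem, boundary and leaf polarity list (left, 23 genes) and cyclins and mitotic genes (right, 23 genes) as log2(FPKM + 1), ordered by the difference between the mutants, 1 symbol per library and a bar at the mean of 3. STM, CLV3 and CUC3 are furthest right in epcr1/2, and for AUR1, CYCB1;2 and most other mitotic genes the arid2/3/4 symbols lie left of both epcr1/2 and WT.

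Flowering genes differed in both directions. PI, a floral B-class organ identity gene, was at 3.69, 4.27 and 1.98 FPKM in arid2/3/4, against 0.335, 0.824 and 0.540 FPKM in epcr1/2 and 0.409, 0.645 and 0.690 FPKM in WT (1.43 ± 0.23, adjusted p = 0.00867). AP1, which specifies the floral meristem, was at 0, 0.0787 and 0.0418 FPKM in arid2/3/4, against 0.844, 0.631 and 0.648 FPKM in epcr1/2 and 0.0345, 0 and 0.0812 FPKM in WT (-0.71 ± 0.10, adjusted p = 0.00562). All 3 arid2/3/4 libraries lay above the other 6 for PI, and all 3 epcr1/2 libraries above the other 6 for AP1, at a low level. Of 9 tested floral organ genes, 3 rose (PI, SHP1 and FUL) and 1 fell (AP1), beside 5.71% and 4.77% of all tested genes. The median was 0.74, and with the replicate block 5 rose and 1 fell, beside 28.5% of all tested genes in either direction. The call of SHP1 (1.04 ± 0.19) ended without a replicate 1 or 2 of either mutant (adjusted p up to 0.0619), and that of FUL (0.74 ± 0.19) ended in 8 of 9 leave-outs, all but that of epcr1/2 replicate 3 (up to 0.166).

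Among 15 floral repressors, 2 rose in arid2/3/4 and 1 fell, beside 5.71% and 4.77% of all tested genes. With the replicate block 7 rose and 1 fell, beside 28.5% of all tested genes in either direction. FLM was at 23.8, 23.9 and 33.8 FPKM in arid2/3/4, against 11.3, 9.94 and 14.1 FPKM in epcr1/2 and 29.3, 28.3 and 27.4 FPKM in WT (1.14 ± 0.18, adjusted p = 0.00864). SVP, whose protein acts with FLM to repress flowering, was at 33.2, 27.3 and 42.4 FPKM in arid2/3/4, against 20.2, 18.2 and 16.9 FPKM in epcr1/2 and 49.0, 48.4 and 45.7 FPKM in WT (0.84 ± 0.17, adjusted p = 0.02). Both were lower in all epcr1/2 libraries than in any library of arid2/3/4 or WT. The call of SVP ended without arid2/3/4 replicate 1 (0.0739) or epcr1/2 replicate 1 (0.0585) or 2 (0.0830). TFL1 (-1.15 ± 0.24) was the repressor that fell, and its call ended without a replicate 1 or 2 of either mutant (up to 0.0848). FLC itself was at 1.46, 1.19 and 3.04 FPKM in arid2/3/4, against 0.339, 0 and 0.859 FPKM in epcr1/2 and 1.4, 2.19 and 1.26 FPKM in WT, which did not pass (1.04 ± 0.30, adjusted p = 0.0674) except with the replicate block (0.0328). Of 10 flowering integrators and promoters 1 fell, AGL24 (-1.13 ± 0.20), beside 4.77% of all tested genes called lower. The call of AGL24 ended without epcr1/2 replicate 1 (0.0586) or 2 (0.0577).

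Genes of DNA methylation and of RNA-directed DNA methylation, the pathway in which small RNAs guide methylation to repeats, held calls in both directions. Of 35 tested genes 3 were higher and 5 lower in arid2/3/4, beside 5.71% and 4.77% of all genes, so the higher count is near the share over all genes, and the median was -0.14. With the replicate block 8 were higher and 8 lower, beside 28.5% of all tested genes in either direction. AGO9, an Argonaute gene best known from ovules, was at 5.39, 5.27 and 9.46 FPKM in arid2/3/4, against 1.52, 1.76 and 2.01 FPKM in epcr1/2 and 0.609, 0.693 and 0.165 FPKM in WT (1.44 ± 0.24, adjusted p = 0.00965). IDN2, which encodes an RNA-binding protein of the pathway, was at 9.49, 8.05 and 7.89 FPKM in arid2/3/4, against 24.7, 25.7 and 15.7 FPKM in epcr1/2 and 24.9, 20.2 and 19.6 FPKM in WT (-1.25 ± 0.21, adjusted p = 0.00945). SHH1, whose protein recruits Pol IV, fell by 0.87 ± 0.14 on the log2 scale, and with AGO9 and IDN2 its call held with any library left out.

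DCL3, which encodes the Dicer for 24-nucleotide small RNAs, was at 0.370, 0.352 and 0.660 FPKM in arid2/3/4, against 1.57, 1.81 and 2.33 FPKM in epcr1/2 and 2.2, 2.13 and 3.07 FPKM in WT (-0.99 ± 0.17), and its call ended without arid2/3/4 replicate 1 (0.0513). VIM1 (-0.93 ± 0.16) lost its call without a replicate 1 or 2 of either mutant (up to 0.0551). SUVH5 (-0.75 ± 0.14) lost it without arid2/3/4 replicate 1 (0.0560) or 2 (0.0674) or epcr1/2 replicate 1 (0.0553). RDR2 (0.74 ± 0.19) and SUVH9 (0.67 ± 0.17) passed with all 9 libraries, but RDR2 was called only without replicate 3 of arid2/3/4 or of WT, and SUVH9 only without WT replicate 3, with adjusted p up to 0.168 otherwise. The DNA demethylase gene ROS1 was low in both mutants, at 1.24, 1.36 and 1.02 FPKM in arid2/3/4 and 0.859, 1.14 and 1.47 FPKM in epcr1/2, against 15.6, 15.2 and 17.2 FPKM in WT, and the difference between the mutants did not pass (0.04 ± 0.15, adjusted p = 0.928). None of the 8 tested genes of DNA demethylation and methylation-dependent expression passed in limma, and 1 had an unadjusted p under 0.05.

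Among 24 tested genes of histone acetylation and deacetylation, 2 rose in arid2/3/4 and none fell, a share near the 5.71% called higher over all genes. With the replicate block 5 rose, beside 28.5% of all tested genes in either direction. HDA18, a histone deacetylase gene, was at 7.90, 6.52 and 7.74 FPKM in arid2/3/4, against 2.41, 2.49 and 1.63 FPKM in epcr1/2 and 0.918, 0.711 and 0.590 FPKM in WT (1.41 ± 0.16, adjusted p = 0.00254). Both mutants were above WT in every library, arid2/3/4 the more so. HDA5, a close relative, was at 15.4, 15.7 and 20.4 FPKM in arid2/3/4, against 8.68, 9.64 and 11.7 FPKM in epcr1/2 and 17.5, 16.1 and 17.4 FPKM in WT (0.72 ± 0.16, adjusted p = 0.0282), and its call remained only without replicate 3 of arid2/3/4, epcr1/2 or WT (up to 0.118 otherwise). Of 20 Polycomb genes and antagonists 2 fell and none rose, beside 4.77% of all tested genes called lower. They were ATX1 (-0.71 ± 0.14), a histone H3K4 methyltransferase gene, and DRIP1 (-1.05 ± 0.21), a RING-type ubiquitin ligase gene. ATX1 lost its call without a replicate 1 or 2 of either mutant, and DRIP1 without arid2/3/4 replicate 1 or 2 or epcr1/2 replicate 1. Of 21 subunit genes of NuA4 and SWR1 1 passed, MRG2 (0.67 ± 0.13), a share near the 5.71% called higher over all genes. MRG2 did not pass after median centring or quantile normalization, nor without arid2/3/4 replicate 1 (0.0761) or 2 (0.0707) or epcr1/2 replicate 1 (0.0745). With the replicate block 7 of the 21 subunit genes rose and 1 fell, and of the Polycomb list 2 rose and 2 fell. Both counts stand beside 28.5% of all tested genes in either direction.

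Heat shock, glucosinolate and dehydrin genes were among those lower in arid2/3/4. ROF2, a heat-induced immunophilin gene, was at 0.925, 0.790 and 1.12 FPKM in arid2/3/4, against 17.5, 18.5 and 11.4 FPKM in epcr1/2 and 4.49, 3.86 and 14.3 FPKM in WT (-3.09 ± 0.42, adjusted p = 0.00454). It was 1 of 4 heat shock genes of 17 that fell, beside 4.77% of all tested genes called lower. The list median was -0.69, with 1 to 6 lower members over the leave-outs. The other 3 that fell, HSP17.6II, HSP23.6-MITO and HSP17.6A, kept their calls in 4, 1 and 1 of the 9 leave-outs. Median centring gave 2 lower members, quantile normalization 3 and the replicate block 5. The block called 28.5% of all tested genes in either direction. Among 17 glucosinolate genes 4 fell and none rose, again beside 4.77% called lower over all genes. Their median was -0.44, with 1 to 7 lower over the leave-outs. With the replicate block 1 rose and 8 fell, again beside 28.5% of all tested genes. IMS2, which encodes an enzyme that lengthens the side chain of methionine, was at 23.4, 21.8 and 17.4 FPKM in arid2/3/4, against 66.9, 69.0 and 54.8 FPKM in epcr1/2 and 82.2, 75.6 and 52.8 FPKM in WT (-1.56 ± 0.21, adjusted p = 0.00413). The dehydrin gene ERD10 was at 125, 116 and 146 FPKM in arid2/3/4, against 461, 434 and 296 FPKM in epcr1/2 and 97.7, 94.4 and 157 FPKM in WT (-1.60 ± 0.26, adjusted p = 0.00908). Of 26 genes of abscisic acid, cold and drought 1 rose and 1 fell, ERD10, beside 5.71% and 4.77% of all tested genes. The gene that rose was ABI2, a phosphatase gene of the pathway (1.31 ± 0.23), and its call ended without arid2/3/4 replicate 1 (0.0571) or 2 (0.0541).

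In ethylene synthesis and signalling, 2 of 12 tested genes fell, AT1G12010 and the ACC synthase gene ACS11 (-1.49 ± 0.18), beside 4.77% of all tested genes. Among 18 auxin genes 3 rose and 2 fell, beside 5.71% and 4.77% of all tested genes. The leave-outs gave 1 to 3 higher and 0 to 3 lower. With the replicate block 4 rose and 5 fell, beside 28.5% of all tested genes in either direction. Of the auxin calls in the 9-library fit, those of IAA12 and GH3.3 were kept in 4 and 1 of the 9 leave-outs. IAA14, an Aux/IAA repressor gene, was at 17.4, 13.1 and 14.6 FPKM in arid2/3/4, against 7.07, 7.12 and 5.96 FPKM in epcr1/2 and 20.5, 22.3 and 19.9 FPKM in WT (1.05 ± 0.15, adjusted p = 0.00504). Of 35 jasmonate genes MYC4 and COI1 rose and none fell, which is the share called higher over all genes, 5.71%. Centring gave 1 higher and 2 lower, and the leave-outs 0 to 3 each way. The replicate block gave 5 higher and 4 lower, a share near the 28.5% of all tested genes. MYC4 kept its call in 6 of the 9 leave-outs (adjusted p up to 0.0602) and COI1 in 2 (up to 0.161). None of 10 cytokinin response genes passed in limma, and none had an unadjusted p under 0.05, whereas with the replicate block 1 rose, ARR16 (block adjusted p = 0.0473).

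Photosynthesis and seed storage genes gave few calls between the mutants. None of 42 photosystem, light-harvesting and Calvin cycle genes passed in limma without the replicate block, with 3 at an unadjusted p under 0.05 and a median of 0.15. With the block 2 rose, LHCB1.2 and HCEF1, beside 28.5% of all tested genes in either direction. Quantile normalization also gave 2 higher. LHCB1.2, a light-harvesting gene, had the largest difference of these, at 1223, 1075 and 2490 FPKM in arid2/3/4, against 576, 509 and 757 FPKM in epcr1/2 and 3418, 3438 and 3886 FPKM in WT (1.29 ± 0.37, adjusted p = 0.0667). It passed with the block (0.0108), after quantile normalization (0.0195) and without the variance trend (0.0379). Of 20 seed storage, oil body and late embryogenesis genes 1 fell, a share near the 4.77% called lower over all genes. It was the late embryogenesis gene M17 (-3.07 ± 0.54, adjusted p = 0.0117), whose call ended without epcr1/2 replicate 1 (0.0511) or 2 (0.0548). The median of this list was 0.43 and 0.52 in replicates 1 and 2 and -1.96 in replicate 3. SESA3, a 2S albumin gene, was at 241, 235 and 0.531 FPKM in arid2/3/4, against 47.9, 43.9 and 19.1 FPKM in epcr1/2 and 0.240, 0.183 and 0.118 FPKM in WT, so that replicate 3 of arid2/3/4 was far below the other arid2/3/4 libraries. With that library left out, 8 of the 20 passed as higher and 2 as lower, beside 1881 and 1403 of all 21168 tested genes.

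**Figure D5:**
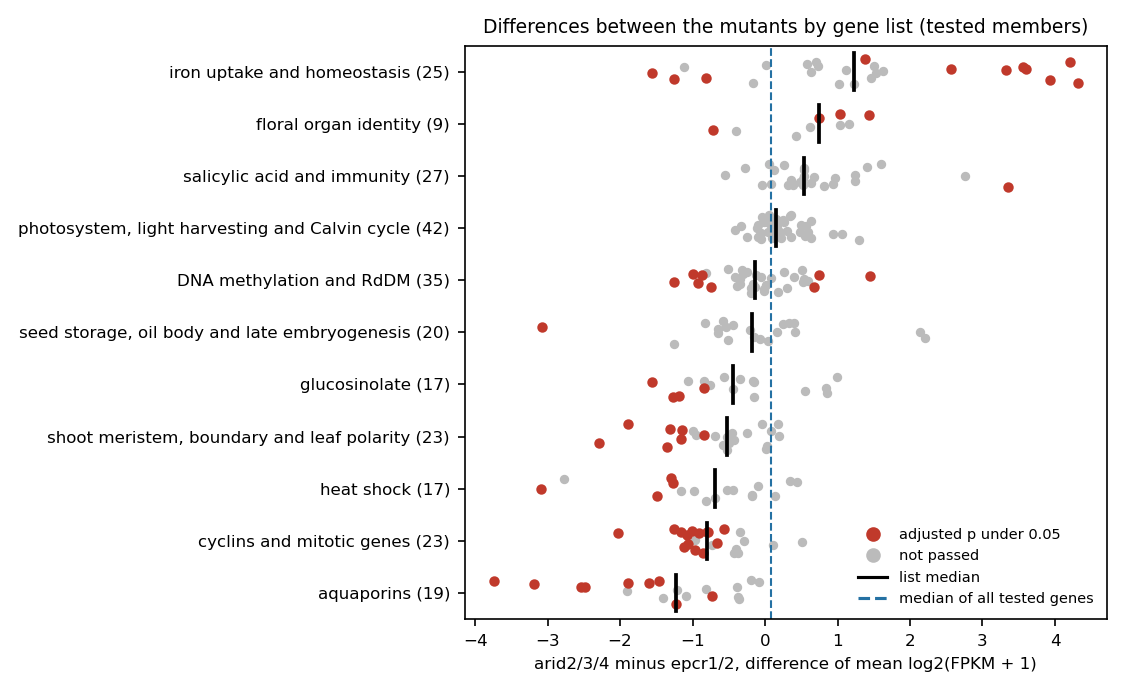
Difference between the mutants, arid2/3/4 minus epcr1/2 in mean log2(FPKM + 1), for each tested member of 11 gene lists, with the number tested in brackets. Red points passed at an adjusted p under 0.05, black bars are list medians and the dashed line is the median of all tested genes, and the points of aquaporins lie wholly left of 0 whereas those of iron genes reach above 4.

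Short motifs in the same 300-base windows were counted over the whole comparison. Shares are given for genes called higher, genes called lower, the 21167 tested genes with a window and all 27838 windows, in that order. The telo-box AAACCCTA, an element that TRB proteins bind, was present on either strand in 5.96%, 5.45%, 5.57% and 6.21%. The W-box TTGACC was in 15.3%, 11.7%, 14.3% and 14.1%. The RY core CATGCA was in 9.19%, 11.6%, 9.04% and 10.0%. The heat shock element core GAANNTTC was in 9.77%, 9.41%, 11.3% and 11.5%, and the evening element AAAATATCT in 2.15%, 2.97%, 2.96% and 2.81%. The motifs as searched do not contain one another, and a match is a description of the letters and not a site.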

How the data were processed

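mRNA was sequenced from 3 libraries of each genotype. The table header names no unit, and the values the authors deposited were taken as FPKM from their scale and from the tool named. STAR 2.5.2b, Cuffdiff and the TAIR10 build were used per the submitters' processing notes, and no step beyond these names is given in the sources used here. Read counts are not in the table, so no counting interval is given, and depth was estimated roughly from the lowest values. The 278 organelle genes, all at 0, were left out.

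Values were transformed to log2(FPKM + 1), and a fold change on this scale understates the change of low genes. Genes that reached 0.5 FPKM in 3 or more libraries were fitted in limma 3.58.1 (R 4.3.3) with a mean per genotype over all 9 libraries and a variance trend. A gene was called, and said to rise or fall, at a Benjamini-Hochberg adjusted p under 0.05 over 21168 genes, with no minimum fold. The procedure was tested on simulated data. The simulated libraries varied independently, without the likeness of replicates 1 and 2, so that test does not cover it.

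Replicate numbers come from the labels. Deviations from genotype means correlated between libraries of the same number in all 9 pairs (r of 0.635 to 0.835), so the numbers were taken to pair the samples, although numbers 1 and 2 also correlated across genotypes (0.66 to 0.765) and number 3 ran against both (-0.817 to -0.682). Counts and calls with a replicate block are given beside main results that it moved.

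The members and the gene lists (595 entries in 30 lists written by hand, and 2 taken from annotation descriptions) were chosen with earlier results of these data known. Named genes are the list of the complex and its partners, the largest 15 called genes in each direction that did not overlap and reached a mean of 1 FPKM, the largest 10 in each direction also called after averaging replicates 1 and 2, and up to 4 called members of each list (2 where none was called). Genes named beyond these were chosen after their values were seen. Among them are IRT1, CYP82C4, FER1, FER4, NAS1, LOB, KNAT6, WUS, the PIP1 genes, FLC and the genes lost or reduced in a single mutant. Alternatives were other pseudocounts, filters and scalings, other designs and each library left out.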

Additional observations from a re-analysis of the deposited data

How the results depend on the processing

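The count of 2218 genes, 1208 higher and 1010 lower in arid2/3/4, stayed within 1.5 times under pseudocounts of 0.1 and 4, no filter, a filter at 2 FPKM, quantile normalization and no variance trend. Median centring gave 1536 lower genes. A fit of only the 6 mutant libraries gave 1477 genes, 778 higher and 699 lower. Leaving out 1 library gave 834 to 3284 genes, 426 to 1881 higher and 408 to 1403 lower. With replicates 1 and 2 only, 11396 genes passed, 6911 higher and 4485 lower; those pairs were the most alike. With the replicate block, which uses the pairing of the numbers, 6039 genes passed, 3554 higher and 2485 lower, and with replicates 1 and 2 averaged first, 49 passed, 25 higher and 24 lower. The block ended no call among the 117 named genes and added 8 (ARID3, LHCB1.2, KRP2, SAG13, PAP1, GA20OX1, GA2OX2 and ARR16). The block cannot change the sign of a difference here, since each replicate number occurs once in each genotype. Under the other alternatives, no named gene changed sign where it was called in the main fit or in the alternative. GA20OX1, PWWP1, PWWP2, QQS, SDC, TRB2 and TRB3 changed sign only in fits that did not call them. Averaging ended 71. The cause of these shifts was not tested. Of 120 called list members and named genes, 58 kept their call with any 1 of the 9 libraries left out. Depth limits mainly the genes below 1 FPKM, where the pseudocount compresses differences.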
